A study of Homo sapiens with 48 samples.

Results

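The 8 genes of the Prader-Willi imprinted locus described here, SNRPN, SNURF, SNHG14, NDN, MAGEL2, MKRN3, NPAP1 and UBE3A, were taken by symbol from a table of 36843 genes, and all 8 were found. They lie on chromosome 15 between 23565674 and 25439051 (build hg38), a window of 1.87 Mb. The study asked what the KRAB zinc finger protein ZNF274 does to transcription and chromatin in established human lines of pancreatic ductal adenocarcinoma (PDAC). For RNA-seq there were 10 groups with 3 libraries apiece, 30 in all. In both ASPC1 and CFPAC1 these were a control siRNA group (siCTRL), a group transfected with siRNA to ZNF274 (siZNF274), a group given 5 µM of the DNA methyltransferase inhibitor azacitidine (AZA) and a group given its solvent DMSO. Panc3.27 had an empty vector group and a group overexpressing ZNF274 (OE). H3K9me3, a histone mark of silent chromatin, was read by CUT&RUN in ASPC1 with a stable control hairpin (shCTRL) or a hairpin to ZNF274 (shZNF274), both under 1 µg/ml doxycycline for 9 days. Its deposited broad peak list was used here. The siRNA of the RNA-seq was transient and the hairpin of the CUT&RUN stable, and the overexpression comes from 1 line.

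The locus is a textbook case of genomic imprinting, in which an allele is read or silent according to the parent it came from. The imprinting centre at the start of SNURF and SNRPN is methylated on the maternal copy, so that SNURF, SNRPN, the long non-coding host transcript SNHG14, NDN, MAGEL2, MKRN3 and NPAP1 are read from the paternal copy, and loss of that expression causes Prader-Willi syndrome. SNHG14 carries the C/D box small nucleolar RNA clusters SNORD116 and SNORD115 in its introns and runs antisense across UBE3A, a ubiquitin ligase read from the maternal copy in neurons and from both copies in most other tissues. ZNF274 is known from stem cell work to bind the SNORD116 cluster together with the H3K9 methyltransferase SETDB1.

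Start regions that differ in CpG content and in H3K9me3 are shown for 4 transcription starts, to set the sequence beside the expression and the mark described further on. Each run holds the 250 bases before a RefSeq start (GRCh38.p14, the same build as hg38), read along the gene's strand, with CpG sites in capitals. RefSeq entries were found for 8 of 8 members.
SNURF and SNRPN, chr15:24954737-24954986, plus strand: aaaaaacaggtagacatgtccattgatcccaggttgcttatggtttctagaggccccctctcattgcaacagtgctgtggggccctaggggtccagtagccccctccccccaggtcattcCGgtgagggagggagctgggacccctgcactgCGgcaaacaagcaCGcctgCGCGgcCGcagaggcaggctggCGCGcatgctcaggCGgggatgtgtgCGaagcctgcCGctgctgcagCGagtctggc
MKRN3, chr15:23565424-23565673, plus strand: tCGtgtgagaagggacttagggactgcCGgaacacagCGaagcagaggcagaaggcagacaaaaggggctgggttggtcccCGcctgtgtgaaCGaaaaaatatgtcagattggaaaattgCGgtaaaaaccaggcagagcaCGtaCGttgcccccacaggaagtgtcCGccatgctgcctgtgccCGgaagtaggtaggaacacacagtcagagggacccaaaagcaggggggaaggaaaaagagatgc
NDN, chr15:23687306-23687555, minus strand: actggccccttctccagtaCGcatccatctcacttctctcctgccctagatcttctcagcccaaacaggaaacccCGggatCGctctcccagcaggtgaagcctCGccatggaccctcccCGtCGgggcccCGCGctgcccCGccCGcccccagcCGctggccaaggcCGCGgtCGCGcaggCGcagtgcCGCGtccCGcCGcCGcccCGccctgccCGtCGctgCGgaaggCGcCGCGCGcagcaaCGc
UBE3A, chr15:25439025-25439274, minus strand: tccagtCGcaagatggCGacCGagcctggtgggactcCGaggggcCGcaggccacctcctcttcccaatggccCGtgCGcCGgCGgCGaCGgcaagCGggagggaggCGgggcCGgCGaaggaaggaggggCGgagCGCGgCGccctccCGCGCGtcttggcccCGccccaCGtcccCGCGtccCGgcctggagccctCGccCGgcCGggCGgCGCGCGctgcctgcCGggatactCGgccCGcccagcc
The run shared by SNURF and SNRPN held 12 CpG sites and that of MKRN3 held 10, against a median of 11 over 34943 distinct RefSeq start regions. NDN held 30 and UBE3A 37, higher than 87.6% and 96.0% of those regions. The start regions of SNURF, MKRN3 and NDN lay wholly under H3K9me3 peaks in ASPC1, which held for 4.82% of all start regions, and that of UBE3A lay under none. A motif of the type read by the activator NRF1 occurred 1 time in the NDN run on a search of both strands and in 7.11% of all start regions. A motif of the type read by YY1 occurred 1 time in the UBE3A run and in 3.85% of all start regions. Neither motif occurred in the runs of SNURF and MKRN3. Among start regions not printed, the NRF1-type motif occurred 1 time at SNHG14 (chr15:24823358-24823607) and 1 time at an upstream SNRPN start (chr15:24856321-24856570). That RefSeq start of SNHG14 is not the start of its gene body in the count table, which begins downstream at 24978583. It lies next to the start of the SNRPN body there, at 24823637. The YY1-type motif also occurred 1 time at another UBE3A start (chr15:25439057-25439306), whose region overlaps the printed run and holds the same site. The motif was absent at a further UBE3A start (chr15:25438230-25438479). A match is a description of letters only.

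The RNA-seq libraries held 31415743 to 43383141 gene counts each, and no pair within a group was identical over 30 pairs compared. Replicates are described as biological, with no word on separate cultures, so p-values measure the spread between these libraries. The targeted gene itself did not fall under its siRNA: the TMM-scaled level of ZNF274, in CPM (counts scaled to library size), was 19.4 ± 2.93 (SD, n = 3) in the libraries labelled siZNF274 against 17.6 ± 2.61 with siCTRL in ASPC1 and 32.8 ± 1.47 against 34.4 ± 1.12 in CFPAC1 (edgeR, adjusted p = 0.305 and 0.423). Overexpression raised it 2.76-fold in Panc3.27. With AZA it was 1.40-fold higher than with DMSO in ASPC1 (edgeR, adjusted p = 0.00317) and 1.12-fold in CFPAC1 (adjusted p = 0.0464, called in 5 of 12 alternatives). DMSO had the lowest mean in both lines, at 13.7 and 28.5 CPM, and siCTRL lay above it too. In CFPAC1 the AZA mean, at 31.8 CPM, lay below that of siCTRL. The 9 ductal and epithelial markers were all detected in every line, with a summed level of 7431 to 15620 CPM in ASPC1, 8576 to 10783 in CFPAC1 and 5181 to 5876 in Panc3.27. The summed level of 12 neuronal markers was 0.704 to 5.71 CPM in ASPC1, where SNAP25, SYT1, STMN2, GAP43, NEFL and DCX were at 0. It was 18.6 to 32.7 CPM in CFPAC1, where STMN2 was at 0, and 76.3 to 84.0 CPM in Panc3.27, where STMN2, ELAVL4 and NEFM were at 0. Summed leukocyte markers reached 6.31 CPM at most, fibroblast markers 55.1 to 164 and endothelial markers 8.42 to 92.4 over the 30 libraries. Single genes made up most of these sums. By mean CPM, MAP2 led the neuronal list in Panc3.27 (61.3) and CFPAC1 (20.7). Fibroblast sums were mostly LUM in ASPC1 (116) and COL1A1 in CFPAC1 (122) and Panc3.27 (62.5). Endothelial sums were mostly EGFL7 in ASPC1 (73.8) and VWF in Panc3.27 (42.8). The sums are thus no measure of a cell type. The part of these markers in the differences between lines was not tested.

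The lines differed in which locus genes they expressed, and the paternally read genes split between them: CFPAC1 expressed the SNURF, SNRPN and SNHG14 unit, Panc3.27 expressed MKRN3, and ASPC1 expressed neither above trace counts. SNRPN (ENSG00000128739.23, chr15:24823637-24978723), which encodes the spliceosomal protein SmN, had no count in any of 12 ASPC1 or 6 Panc3.27 libraries. In CFPAC1 it had 206, 241 and 209 counts with DMSO, 276, 229 and 210 with AZA, 225, 247 and 217 with siCTRL, and 206, 278 and 267 with siZNF274. All 12 CFPAC1 libraries thus lay above all 18 others. Set against 3 counts over all libraries of a line at 0, the CFPAC1 level was at least 842-fold higher than in ASPC1 and at least 442-fold higher than in Panc3.27. SNURF (ENSG00000273173.5, chr15:24954986-24977850), the upstream reading frame of the same transcript, lies wholly inside the SNRPN gene body. It had 6 to 15 counts in the CFPAC1 libraries and none elsewhere, at least 38.1-fold over ASPC1 and at least 20.0-fold over Panc3.27. Reads of SNURF and SNRPN can be split between them by the counting, whose program the sources used here do not give. A further protein-coding entry, RP11-701H24.9 (chr15:24955034-25000276), overlaps SNURF, the end of SNRPN and the start of SNHG14, and can share their reads too. It had 0 counts in ASPC1, and its level in CFPAC1 was not examined here. In bulk RNA, fewer expressing cells and less RNA per cell cannot be told apart.

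SNHG14 (ENSG00000224078.15, chr15:24978583-25420336), the host of the SNORD116 and SNORD115 clusters, followed the same line. Its 12 CFPAC1 libraries held 10358 to 12618 counts, against 0 to 16 in ASPC1 and 1 to 6 in Panc3.27. CFPAC1 was 2046-fold above ASPC1 (95% interval 1593 to 2676) and 2521-fold above Panc3.27 (1721 to 3860), by exact intervals on summed counts that cover counting error only. ASPC1 and Panc3.27 were not separated from each other, with a ratio of 1.23 (0.767 to 2.03) on 61 and 26 counts in all.

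**Figure D1:**
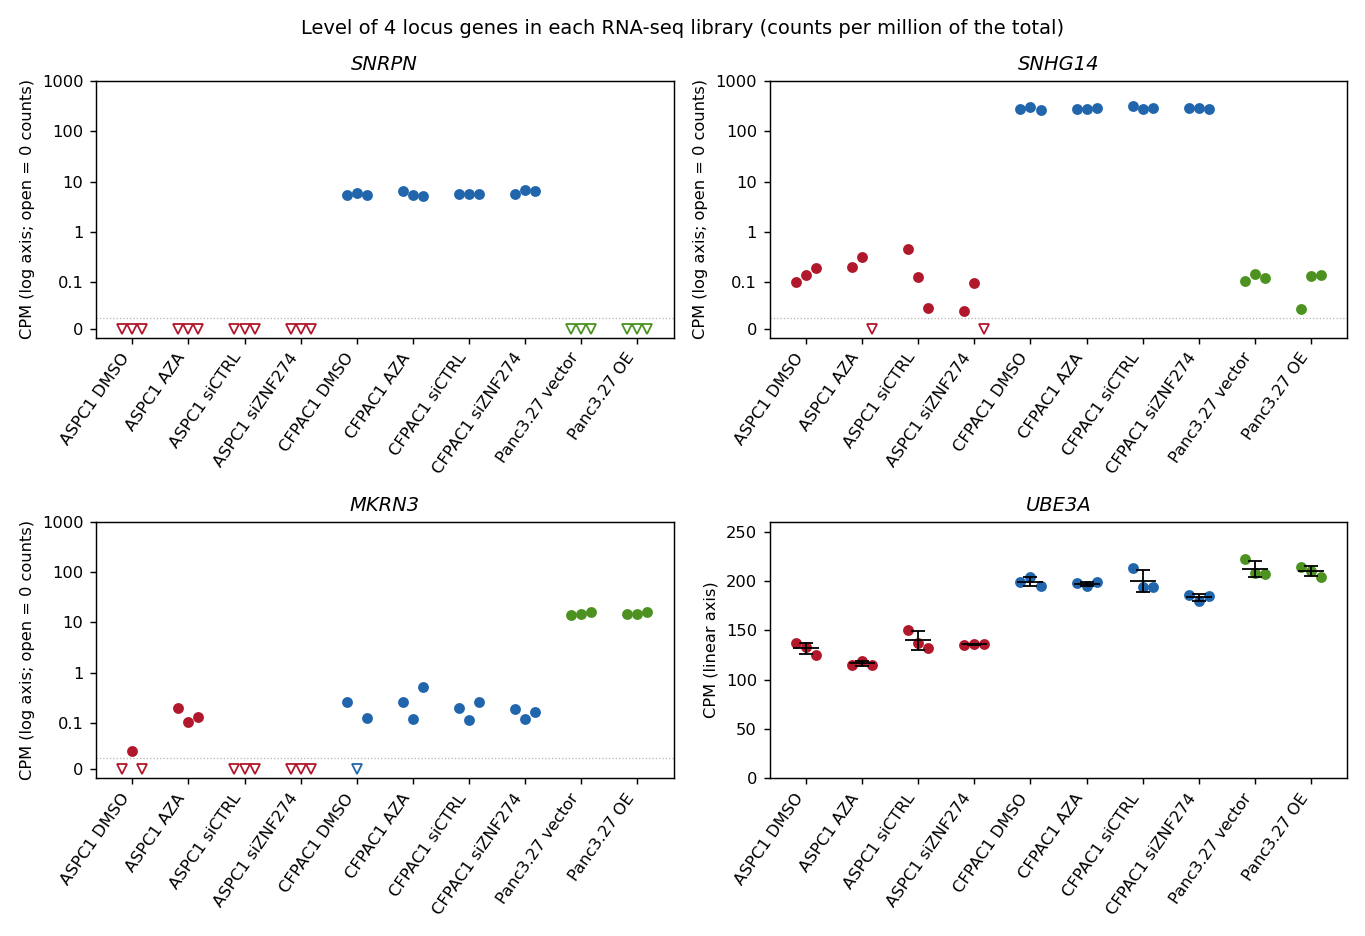
Level of SNRPN, SNHG14, MKRN3 and UBE3A in each of 30 RNA-seq libraries, in CPM of the total count (log axis with open triangles for 0 counts, linear for UBE3A, where bars are the mean ± SD of 3 libraries). SNRPN and SNHG14 are high in the 12 CFPAC1 libraries, MKRN3 in the 6 Panc3.27 libraries, and UBE3A is present in all 30.

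MKRN3 (ENSG00000179455.10, chr15:23565674-23630075 in the count table), a zinc finger ubiquitin ligase known as a brake on the onset of puberty, showed the other pattern. Panc3.27 had 535, 602 and 665 counts with the vector and 493, 541 and 589 with OE. The CFPAC1 libraries had 0 to 21 counts and the ASPC1 libraries 0 to 7, so no library of either line reached the Panc3.27 range. The Panc3.27 level was 77.2-fold above CFPAC1 (95% interval 62.9 to 95.8) and 384-fold above ASPC1 (239 to 659). CFPAC1 exceeded ASPC1 by 4.97-fold on 94 and 17 counts (2.94 to 8.89). Of those 17 ASPC1 counts 16 came from the 3 AZA libraries, and the other 9 libraries held 1 count. Without the AZA libraries of both lines, an alternative chosen after seeing the data, the ratios were 94.7 over CFPAC1 (72.9 to 125) and 4858 over ASPC1 (871 to 191947) for Panc3.27, and 51.3 (8.84 to 2061) for CFPAC1 over ASPC1.

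NDN (ENSG00000182636.8, chr15:23685400-23687305), a MAGE family growth suppressor of neurons, had no count in any of 30 libraries. MAGEL2 (ENSG00000254585.5, chr15:23643549-23647867), a MAGE protein of endosomal protein recycling, had 1 count in 1 OE library of Panc3.27 and none elsewhere. NPAP1 (ENSG00000185823.5, chr15:24675775-24683393), a nuclear pore associated protein best known from testis, had 0 to 5 counts per library, with sums of 14 in ASPC1, 13 in CFPAC1 and 13 in Panc3.27. The 95% intervals of its ratios between lines all held 1. For NDN the 12 ASPC1 libraries together allow a level of up to 0.00693 CPM, the value of 3 counts.

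UBE3A (ENSG00000114062.22, chr15:25333728-25439051) was the member found in every library. In CPM of the total count its group means ran from 116 ± 2.26 in ASPC1 with AZA, through 132 ± 5.88 with DMSO, 136 ± 0.46 with siZNF274 and 139.996 ± 9.5 with siCTRL, to CFPAC1 with 183 ± 3.22 (siZNF274), 197 ± 2.35 (AZA), 199 ± 4.62 (DMSO) and 199.8 ± 11.1 (siCTRL). Panc3.27 was highest, with 209.7 ± 4.95 for OE and 212 ± 8.55 for the vector. Each of the 12 ASPC1 libraries lay below each of the 18 others. ASPC1 with AZA lay below the other ASPC1 groups, of which siCTRL overlapped DMSO and siZNF274. CFPAC1 with siZNF274 lay below AZA, DMSO and siCTRL, which overlapped one another on this scale. The Panc3.27 groups overlapped each other and CFPAC1 siCTRL, and lay above CFPAC1 AZA and DMSO. The genes closest to UBE3A over 30 libraries, after each line's mean was taken out, were TMEM131L (Pearson r = 0.92), TLK1 (0.91) and RAB6A (0.90) of 14297 genes. They are given as a description only, since differences between treatment groups were not taken out.

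An edgeR fit over all 30 libraries put the control groups of the lines side by side. SNRPN, SNURF and SNHG14 passed its count filter through CFPAC1 alone and MKRN3 mainly through Panc3.27, so that their calls restate which line is high and are not counted here. UBE3A, which passed in every line, was 1.46-fold higher in CFPAC1 DMSO than in ASPC1 DMSO (95% interval 1.36 to 1.57, adjusted p = 2.6e-11), where 73.8% of all tested genes were called. It was 1.45-fold higher in the Panc3.27 vector group than in ASPC1 DMSO (1.35 to 1.56, adjusted p = 3.08e-11), where 77.8% of all genes were called. Between the Panc3.27 vector group and CFPAC1 DMSO it did not pass, with a fold of 0.995 and an interval of 0.925 to 1.07 (adjusted p = 0.899), where 77.7% of all genes were called. SNHG14 covers 82.2% of the UBE3A gene body on the other strand. The library kit keeps strand, but the sources used here do not give the strand setting of the counting, so reads of the pair may not be fully separated where SNHG14 is abundant.

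The siZNF274 groups were set against siCTRL to ask whether the locus responds when ZNF274 is targeted. None of the tested members passed in either line, and SNRPN and SNURF had no count in ASPC1. In CFPAC1, where the unit was expressed, SNRPN had 5.67, 6.62 and 6.40 CPM with siZNF274 and 5.71, 5.78 and 5.74 with siCTRL. The lowest siZNF274 library lay below all 3 controls and the others above, and the fold was 1.09 (95% interval 0.929 to 1.27, edgeR, adjusted p = 0.456). SNHG14 had 299, 287 and 279.8 CPM against 320.3, 286 and 297, overlapping groups with a fold of 0.958 (0.882 to 1.04, adjusted p = 0.472). SNURF was 0.250 ± 0.011 against 0.201 ± 0.058 CPM, and MKRN3 0.160 ± 0.037 against 0.195 ± 0.074 CPM, with adjusted p = 0.591 and 0.817. By edgeR 0 of 5 members were called, beside 24.8% of all 18103 tested genes. Of the members, 1 had an unadjusted p under 0.05, and DESeq2 called 1.

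The member nearest the threshold in CFPAC1 was UBE3A. Its 3 libraries labelled siZNF274 had 188, 177 and 184 CPM and its siCTRL libraries 217, 196 and 194, so the groups did not overlap. The fold was 0.905 (95% interval 0.840 to 0.976) with edgeR's adjusted p = 0.0503, and DESeq2 called it. Over 12 alternatives the adjusted p ran from 0.042 to 0.234, and 3 of them called it. In ASPC1 UBE3A was the 1 member that passed the count filter. It had 135, 136.6 and 135 TMM-scaled CPM with siZNF274 and 153, 141 and 136.9 with siCTRL. The groups narrowly did not overlap on this scale but did in CPM of the total count. The fold was 0.944 (0.877 to 1.02, edgeR, adjusted p = 0.185). There 0 of 1 member was called by edgeR or DESeq2 and none had an unadjusted p under 0.05, beside 45.7% of 16186 genes. The UBE3A responses of the lines were not shown to differ (edgeR interaction over 24 libraries, log2 difference -0.04, adjusted p = 0.771).

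SNHG14 in ASPC1 was too low for the filter. It had 1, 3 and 0 counts with siZNF274 and 16, 5 and 1 with siCTRL, where 1 library carried most of the control counts and the groups overlapped. The ratio of the summed counts was 0.185 (0.0464 to 0.545, counting error only), and without a count filter edgeR gave a log2 fold change of -2.35 with adjusted p = 0.0195. Its difference between lines was 2.34 on the log2 scale with edgeR's adjusted p = 0.0749. In that test 0 of 2 estimable members were called by edgeR, beside 16.6% of all genes. Of them, 1 had an unadjusted p under 0.05, and DESeq2 called 1. For SNRPN and SNURF the difference between lines cannot be estimated, since ASPC1 was at 0.

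**Figure D2:**
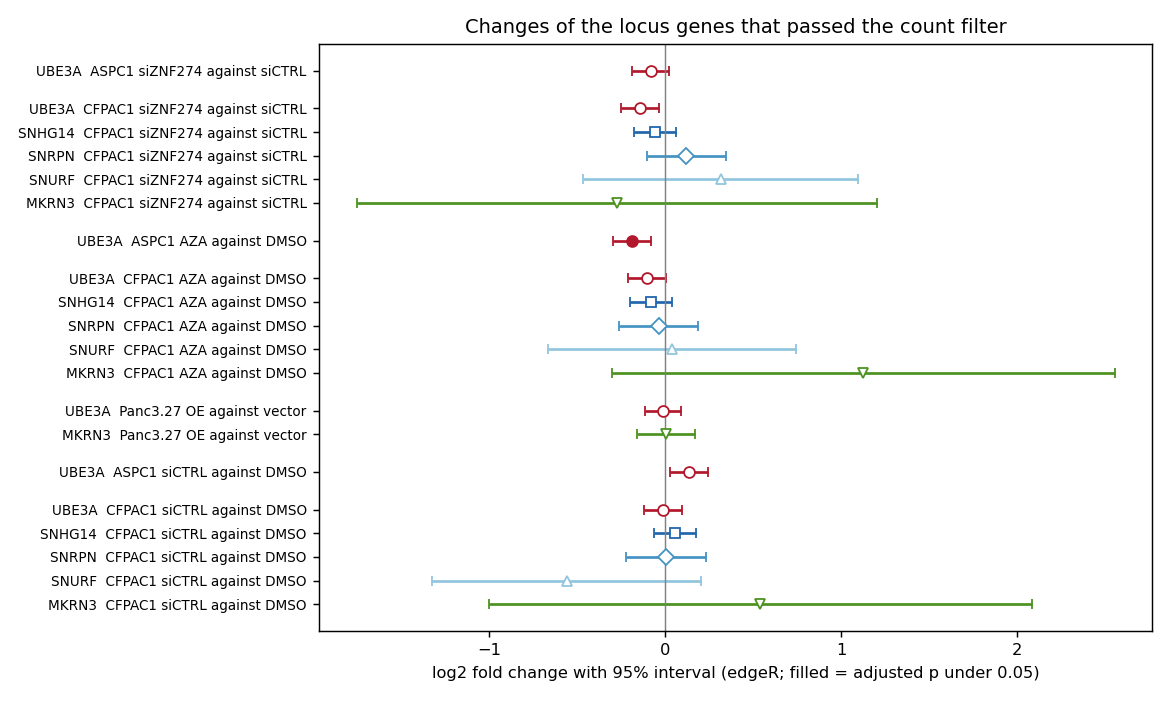
Log2 fold changes of the members that passed the count filter, with 95% intervals, in 7 comparisons within a line (edgeR, 3 libraries a group, filled symbols for adjusted p under 0.05). The filled symbol is UBE3A in ASPC1 with AZA, at -0.19, and the intervals of MKRN3 in CFPAC1 are the widest.

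Azacitidine, which is incorporated into DNA and traps DNA methyltransferases, was set against its solvent. UBE3A fell in ASPC1 and no other tested member was called. UBE3A went from 136, 134 and 123 CPM with DMSO to 113, 117 and 113 with AZA, so that all 3 treated libraries lay below all 3 controls. The fold was 0.876 (95% interval 0.814 to 0.943), a log2 fold change of -0.19 (SE 0.050) with edgeR's adjusted p = 0.00723. The call was kept in 12 of 12 alternatives, with adjusted p from 0.00252 to 0.0401. That is 1 of 1 tested member, beside 35.8% of all genes called in either direction and 18.6% called lower. In the same comparison 6 of 9 ductal and epithelial markers were called lower and 3 of 3 tested endothelial markers higher, and their part in the fall of UBE3A was not tested.

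The genes that were at 0 in ASPC1 were still at 0 after AZA. SNRPN, SNURF, NDN and MAGEL2 had no count in any of the 3 treated libraries, which together allow up to 0.0271 CPM each. MKRN3 had 7, 4 and 5 counts with AZA and 0, 1 and 0 with DMSO, groups that did not overlap, and 0 in all siCTRL and siZNF274 libraries. The ratio of 16 counts to 1 was 16.1 (2.51 to 676, counting error only). MKRN3 did not pass the filter, and without a filter edgeR gave a log2 fold change of 3.56 with adjusted p = 0.0358. SNHG14 had 7, 12 and 0 counts against 4, 5 and 7 and overlapped.

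In CFPAC1 0 of 5 members were called with AZA by edgeR or DESeq2, and none had an unadjusted p under 0.05, beside 25.7% of all genes. SNRPN had 6.32, 5.34 and 5.09 CPM with AZA and 5.48, 6.19 and 5.54 with DMSO (fold 0.974, 0.832 to 1.14, edgeR, adjusted p = 0.833). SNHG14 had 273, 273 and 279 CPM against 287, 309 and 275 (fold 0.947, 0.871 to 1.03, adjusted p = 0.332). SNURF stood at 0.305 ± 0.039 and 0.297 ± 0.060 CPM (adjusted p = 0.952). MKRN3 had 11, 5 and 21 counts against 10, 0 and 5, overlapping groups with a fold of 2.18 (0.809 to 5.87, adjusted p = 0.244). UBE3A had 191, 188 and 191 TMM-scaled CPM against 204, 209 and 200.3, groups that did not overlap on this scale but did in CPM of the total count, with a fold of 0.930 (0.863 to 1.00) and adjusted p = 0.149. The response of UBE3A was not shown to differ between lines (log2 difference 0.09, adjusted p = 0.439). In that test 0 of 2 estimable members were called by edgeR or DESeq2 and none had an unadjusted p under 0.05, beside 17.3% of all genes.

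Overexpression of ZNF274 in Panc3.27 was set against the vector. MKRN3 had 14.5, 14.6 and 16.2 CPM with OE and 14.1, 14.9 and 16.1 with the vector, nearly the same range. Its fold was 1.00 (95% interval 0.895 to 1.12, edgeR, adjusted p = 0.969). UBE3A had 215, 211 and 204 CPM against 225, 206 and 205, overlapping groups with a fold of 0.992 (0.924 to 1.07, adjusted p = 0.874). By edgeR and DESeq2 0 of 2 members were called, and none had an unadjusted p under 0.05, beside 36.9% of all 17350 genes. SNRPN, SNURF and NDN had 0 counts in all 6 libraries, and SNHG14 had 11 counts with OE and 15 with the vector in all.

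The siCTRL and DMSO groups are both controls, and comparing them shows how far the members differed between controls of 1 line. In ASPC1 UBE3A was at a fold of 1.10 (95% interval 1.02 to 1.18, edgeR, adjusted p = 0.0527), a size near that of its change with AZA and in the other direction. There 0 of 1 member was called by edgeR, beside 30.1% of all genes, while 1 had an unadjusted p under 0.05 and DESeq2 called 1. In CFPAC1 0 of 5 members were called by edgeR or DESeq2 and none had an unadjusted p under 0.05, beside 15.5% of all genes, with UBE3A at a fold of 0.989 (adjusted p = 0.888).

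In ASPC1 chromatin, H3K9me3 covered 91.3% of the locus window and stopped short of UBE3A. The window met 12 of the 63955 broad peaks in the authors' deposited table. The widest, chr15:24037403-25321846, was 1284444 bp long, rank 2 of all peaks by width, where the median was 3633 bp and 6 peaks reached 1 Mb. This peak held NPAP1, SNRPN and SNURF whole, 30 of 30 SNORD116 copies (chr15:25051476-25108352) and 48 of 48 SNORD115 copies (chr15:25170723-25269858) by RefSeq position. It ended 11881 bp before the UBE3A gene body, and the next peak began 10859 bp beyond the UBE3A end, a stretch of 128064 bp between peaks.

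**Figure D3:**
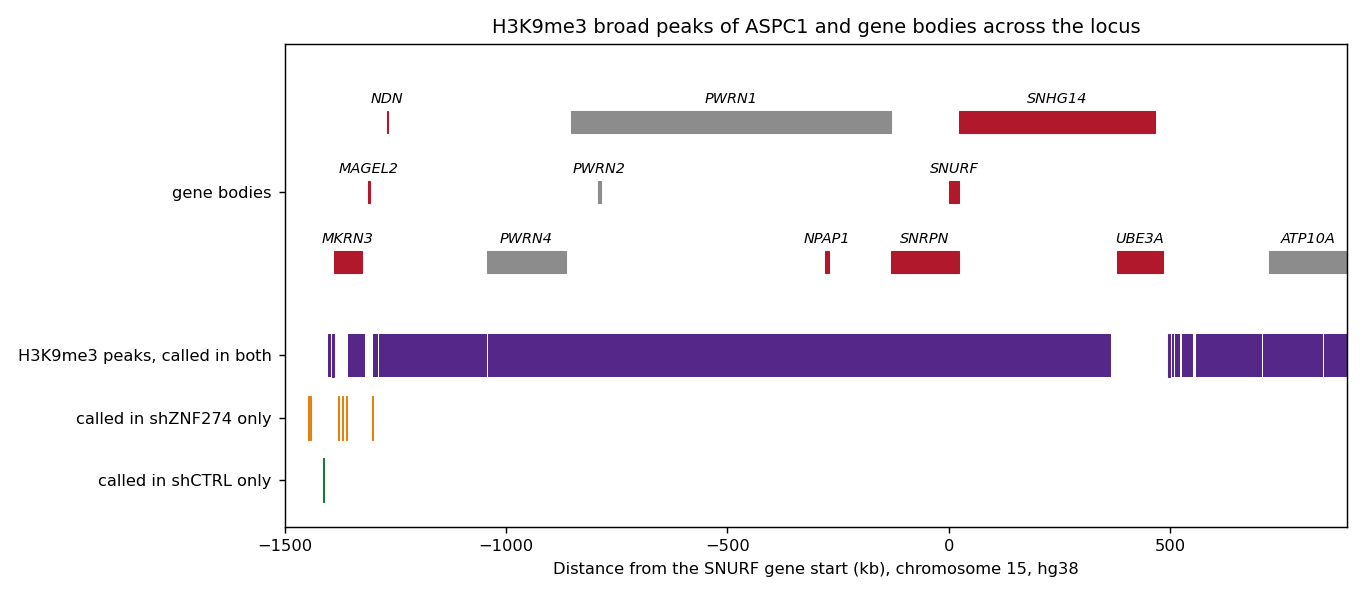
Gene bodies (members red, neighbours grey) above the H3K9me3 broad peaks of ASPC1, by distance in kb from the SNURF gene start, with peaks in rows by the group in which the authors called them. The peaks called in both groups leave UBE3A and MAGEL2 uncovered, and short peaks called with shZNF274 alone lie near MKRN3. Gaps narrower than about 1 kb are not visible at this scale.

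By gene, the cover was 100% for NDN, NPAP1, SNRPN and SNURF, 77.7% for SNHG14 and 57.9% for MKRN3, whose body in the count table spans 64.4 kb. It was 0% for MAGEL2 and UBE3A. So 6 of 8 members had at least 50% of the body covered, against 5.78% of all 36843 genes and 7.87% of the 1284 on chromosome 15. The uncovered part of SNHG14 is the end that runs across UBE3A.

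Most of the locus window lay in peaks labelled as called in both hairpin groups. Of the 12 peaks, 8 were called in both groups in the authors' deposited table, 4 with shZNF274 alone and 0 with shCTRL alone, against 64.3%, 22.0% and 13.7% of all peaks. The 4 peaks called with shZNF274 alone were 1100 to 2308 bp long and lay, 3 of them, inside MKRN3, with the other beyond MAGEL2. The authors' deposited table calls 12 of 12 peaks unchanged between shZNF274 and shCTRL, as it does for 98.9% of all peaks, with 0.640% called down and 0.383% called up. Peaks called in both groups alone covered 90.9% of the window. The list gives no signal per sample, so a change in the height of the mark inside a peak cannot be read from it. It labels each peak as a whole, so how much of a wide peak either group covered cannot be read either.

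**Figure D4:**
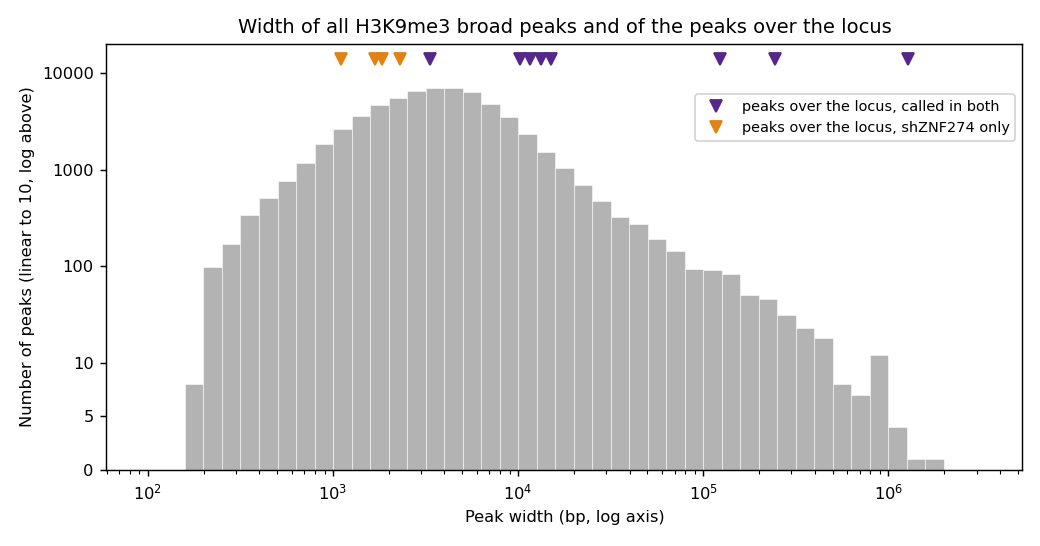
Number of H3K9me3 broad peaks of ASPC1 by width (bp, log axis; counts linear up to 10 and log above), with triangles for the 12 peaks over the locus. The widest, at 1284444 bp, stands at the far right, and the 4 peaks called with shZNF274 alone are among the shorter ones.

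The cover and the RNA of ASPC1 were set side by side along the wider 15q11-q13 region, of whose 20 listed neighbour genes 13 are in the count table. Proximal to the locus, NIPA1 and NIPA2 (magnesium transporters), CYFIP1 (an actin regulator) and TUBGCP5 (a gamma-tubulin complex protein) had 0% cover and 9395 to 80901 counts over 12 ASPC1 libraries. UBE3A, at 0% cover with 56696 counts, and HERC2, a giant ubiquitin ligase at the distal end with 0.474% cover and 45216 counts, belonged with them. The genes between, with 57.9% cover or more, held 61 counts at most, which was SNHG14. MAGEL2 was the exception, with 0% cover and 0 counts. Over all chromosomes, 34.6% of 731 protein-coding genes with at least 50% cover had no count in ASPC1, against 13.9% of 13771 with no cover. Mark and RNA came from separately handled ASPC1 cells, and no peak list of the other lines was used here.

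**Figure D5:**
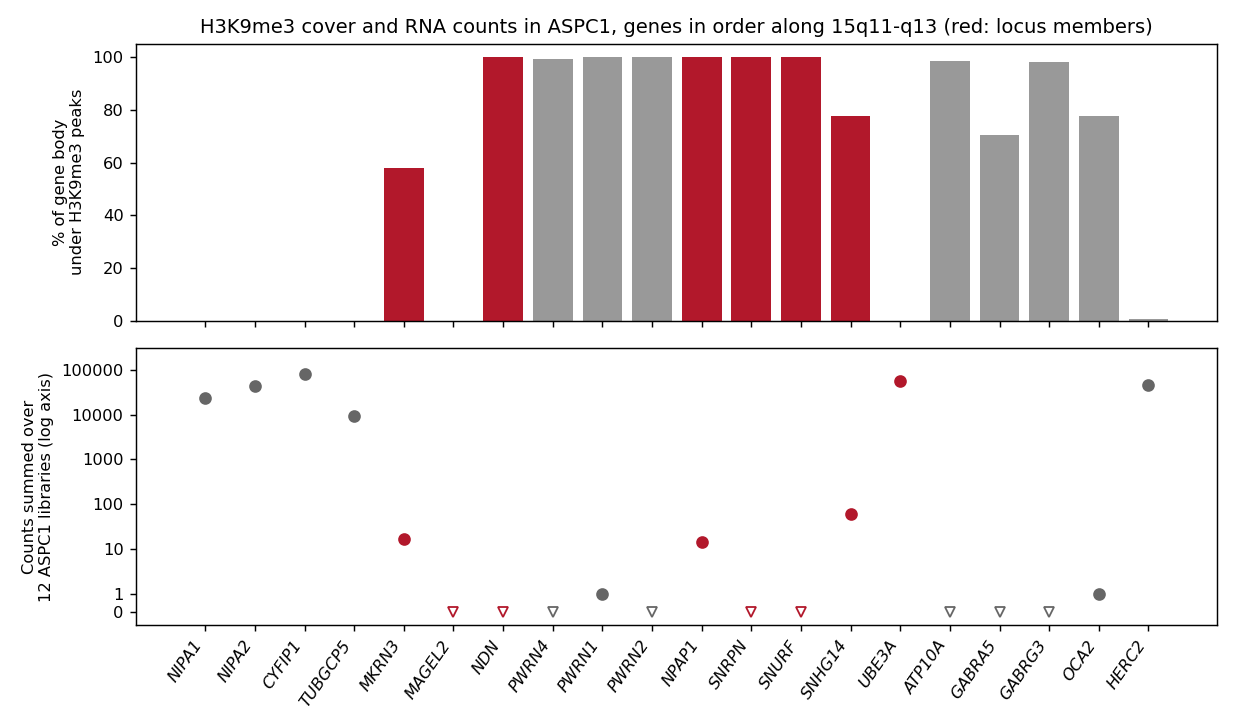
For members (red) and neighbours (grey) in order along the chromosome, the percent of the gene body under H3K9me3 peaks of ASPC1 (upper) and the counts summed over 12 ASPC1 libraries (lower, log axis, open triangles for 0). Genes with bars of 57.9% or more stand at 61 counts or fewer, and the uncovered genes stand at 9395 or more with the exception of MAGEL2 at 0.

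Some neighbours differed between lines as the members did. ATP10A, a phospholipid flippase that lies 98.4% under the ASPC1 mark, had 0 counts in ASPC1, 33644 in CFPAC1 and 3 in Panc3.27, at least 10080-fold higher in CFPAC1 than in ASPC1. OCA2, a melanosome transporter, had 73 counts in Panc3.27 with 1 in ASPC1 and 2 in CFPAC1.

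Neighbours passed the test in each comparison within a line that follows, by modest folds. With siZNF274 0 of 5 were higher and 1 lower in ASPC1 (NIPA2, log2 fold change -0.15, edgeR, adjusted p = 0.0136, not called with upper quartile scaling, adjusted p = 0.105), and 1 of 7 higher and 0 lower in CFPAC1 (NIPA1, fold 1.12, adjusted p = 0.0445, up to 0.196 over 12 alternatives), beside 45.7% and 24.8% of all genes. With AZA in ASPC1 1 of 5 was higher (HERC2, fold 1.12) and 1 lower (NIPA1, fold 0.879), beside 35.8% of all genes. In CFPAC1 0 of 7 were higher and 3 lower, ATP10A (fold 0.838), CYFIP1 (0.896) and HERC2 (0.763), beside 25.7% of all genes. With OE CYFIP1 was higher (fold 1.15) and NIPA2 lower (fold 0.850, adjusted p = 0.00342, called in 11 of 11 alternatives). Of the changes named with AZA or OE, those of ATP10A, HERC2, NIPA1 and CYFIP1 were each lost without at least 1 of the libraries compared, with adjusted p up to 0.103 for ATP10A, 0.123 and 0.0726 for HERC2, 0.0719 for NIPA1, and 0.105 and 0.0567 for CYFIP1.

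Some imprinted genes at other loci rose from few or no counts under AZA. Of 40 listed genes, 19 were tested in ASPC1, where 6 rose and 5 fell with AZA (median log2 fold change 0.05, against -0.0028 over all tested genes), beside 35.8% of all genes called. Of the tested markers of other cell types, 3 of 3 endothelial, 2 of 2 leukocyte and 2 of 4 fibroblast genes were called higher there too. The part of these markers in the changes was not tested. MEG3, a maternally read long non-coding RNA, went from 0 to 217 counts over 3 libraries, at least 72.9-fold higher (edgeR, adjusted p = 4.6e-06). TFPI2, a protease inhibitor known to be methylated in pancreatic cancer, went from 1 to 170 counts (ratio 171, 30.3 to 6807, adjusted p = 3.26e-07). NNAT, a paternally read brain proteolipid, went from 6 to 45 counts (ratio 7.56, 3.21 to 21.7, adjusted p = 0.0016), and KCNQ1, a potassium channel, fell from 6.77 to 2.09 CPM. In CFPAC1 4 of 29 tested rose and 6 fell (median -0.08, against 0.0052), beside 25.7% of all genes called, with NNAT from 4 to 137 counts (ratio 32.6, 12.4 to 121, adjusted p = 3.69e-05), NLRP2 from 1 to 108 (ratio 103, 18.0 to 4091) and PEG10 falling from 1608 to 980.5 CPM. In the same ASPC1 libraries SNRPN, SNURF, NDN and MAGEL2 had no count.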

How the data were processed

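RNA-seq of total RNA (500 ng, stranded, ribosomal RNA removed, per the labels) gave whole-number counts per gene, deposited by the authors with no scaling applied. For RNA-seq, STAR (2.7.10b) and hg38 are listed per the submitters' processing notes, and MACS2 for CUT&RUN. How reads were counted, with which strand setting, and if peak calling pooled the samples, is not stated in the sources used here. The deposited peak score is the same in all peaks and was not used. The calls per peak are the authors'.

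Each line was fitted with edgeR 4.0.16 (R 4.3.3): filterByExpr on the group, TMM scaling, quasi-likelihood test, Benjamini-Hochberg adjustment over all tested genes, threshold 0.05. Of the members, 1 passed the filter in ASPC1, 5 in CFPAC1 and 2 in Panc3.27. Line differences used fits over 24 and 30 libraries. Shares of all genes called are edgeR's at the 0.05 threshold, and none is given for DESeq2 or for unadjusted p-values. Ratios of summed counts carry exact 95% intervals, and the floor is 3 counts over a group or line. DESeq2 1.42.0, other scalings, no filter, only 2 groups, the replicate block and left-out libraries were the alternatives. The edgeR steps were tested on simulated data. Cover is the share of a gene body under peaks. The members and lists were chosen with earlier results of these data known. All 8 members were named, with genes of 15q11-q13, ZNF274 and at most 2 rises and 2 falls per list. The result of 1 neighbour gene is not reported here.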

Additional observations from a re-analysis of the deposited data

Results flagged for a closer look

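The following genes passed edgeR's test of a difference between CFPAC1 and ASPC1 in the same contrast (24 libraries, Benjamini-Hochberg adjusted), with values as the log2 response of CFPAC1 less that of ASPC1. None is a member of the locus. Genes outside the region were looked up because they were called within a line, with at most 2 rises and 2 falls per list. That choice favours a difference between lines in advance. The same test called 16.6% of all genes for siZNF274 and 17.3% for AZA. Of 30 tested imprinted genes outside the locus, 4 were called higher and 3 lower for siZNF274. For AZA 4 were called higher and 4 lower. No cause was tested.

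For siZNF274 the difference of NIPA1, a neighbour of the locus, was 0.24 (adjusted p = 0.0382), with 0.16 in CFPAC1 and -0.06 in ASPC1, and it was called in 10 of 17 alternatives. MEST, a paternally read hydrolase gene, differed by 0.89 (adjusted p = 3.43e-08), with 0.24 and -0.63. SGCE differed by -0.40 (adjusted p = 0.00136), with 0.02 and 0.44. KCNQ1OT1 differed by -1.18 (adjusted p = 0.0219), with -0.43 and 0.76, and was called in 14 of 17 alternatives. CDKN1C, a cyclin-dependent kinase inhibitor, differed by -2.14 (adjusted p = 2.38e-06), with 0.70 and 2.85. KCNQ1 differed by 2.28 (adjusted p = 0.00231), with -1.79 in ASPC1 and counts under the filter in CFPAC1. CALCR differed by 0.94 (adjusted p = 0.0189), with 1.22 and 0.30, and was called in 15 of 17 alternatives.

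For AZA, HERC2 at the distal end of the region differed by -0.54 (adjusted p = 0.00342), with -0.39 in CFPAC1 and 0.16 in ASPC1, called in 17 of 17 alternatives. PEG10 differed by -0.59 (adjusted p = 0.000289), with -0.71 and -0.12. ZNF597 differed by 0.51 (adjusted p = 0.0319), with -0.04 and -0.54, called in 9 of 17 alternatives. KCNQ1 differed by 1.91 (adjusted p = 0.0172), with -1.69 in ASPC1, called in 15 of 17 alternatives. TFPI2 differed by -7.24 (adjusted p = 4.74e-10), with -0.27 and 6.93, and NLRP2 by 7.06 (adjusted p = 0.000943), with 6.16 in CFPAC1. Both sizes rest on a DMSO group with 1 count and depend on the prior count of the fit.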

How the results depend on the processing

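The fall of UBE3A with AZA in ASPC1 was called under all 12 alternatives. The count of called members moved in these cases. For siZNF274 in ASPC1 it went from 0 to 1 with no filter on low counts and was 0 to 1 over left-out libraries (1 without siCTRL replicate 3). For siZNF274 in CFPAC1 it went from 0 to 1 with DESeq2 and with the replicate block and was 0 to 1 over left-out libraries (1 without siCTRL replicate 3). For AZA in ASPC1 it went from 1 to 2 with no filter. For siCTRL against DMSO in ASPC1 it went from 0 to 1 with DESeq2 and with the replicate block and was 0 to 1 over left-out libraries (1 without siCTRL replicate 3 or DMSO replicate 1). For the difference between lines in the siZNF274 effect it went from 0 to 1 with DESeq2 and with no filter and was 0 to 1 over left-out libraries (1 without ASPC1 siCTRL replicate 3 or siZNF274 replicate 2). For CFPAC1 against ASPC1 in DMSO, where 73.8% of all genes were called, it went from 5 to 3 with only the 2 groups compared. There 3 members passed the filter, and SNURF and MKRN3 were the members not fitted. Over left-out libraries it was 4 to 5. SNRPN, SNURF, SNHG14 and MKRN3 passed the filter through a line where they are high, so this count is no result about them. The labels tie same-numbered replicates by number alone, and correlations of their deviations ran from -0.0989 to 0.217. In ASPC1 every sample correlated best with its own number in 3 of 3 pairs for siCTRL against DMSO and siZNF274 against siCTRL. Pairing there was thus not settled. Of 156 counts under alternatives 141 stayed and 15 moved.

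Values that were not called changed sign in 33 of 455 member values, and not all of them were near 0. In the main fit MKRN3 was 0.54 in siCTRL against DMSO of CFPAC1, and SNHG14 was -0.31 in the difference between lines with AZA. For SNRPN with AZA in CFPAC1 the log2 value became 0.0035 with upper quartile scaling. For MKRN3 with OE it became -0.010 with DESeq2 and with RLE scaling and -0.00249 with upper quartile scaling. For SNRPN in siCTRL against DMSO of CFPAC1 it became -0.00156 (DESeq2), -0.00150 (RLE) and -0.00106 (no filter). For UBE3A in Panc3.27 vector against CFPAC1 DMSO it became 0.026 (DESeq2 and RLE), 0.0026 (upper quartile), 0.0028 (no filter) and 0.015 (only the 2 groups). Log2 values that changed sign with a left-out library ranged as follows over the main fit and all alternatives. MKRN3 with siZNF274 in CFPAC1 ran from -0.54 to 0.014, SNURF and SNRPN with AZA in CFPAC1 from -0.093 to 0.20 and from -0.13 to 0.025, and MKRN3 and UBE3A with OE from -0.059 to 0.050 and from -0.059 to 0.012. In siCTRL against DMSO of CFPAC1, SNRPN ran from -0.034 to 0.059, UBE3A from -0.064 to 0.0059 and MKRN3 from -0.048 to 1.51. Between lines, UBE3A in the siZNF274 effect ran from -0.086 to 0.0065, SNHG14 in the AZA effect from -0.92 to 0.51, and UBE3A in Panc3.27 vector against CFPAC1 DMSO from -0.057 to 0.029. The ranges given for neighbours and other imprinted genes use alternatives chosen after seeing the data. Low counts kept 7 of 8 members out of the filtered test in ASPC1.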

Other observations

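Among the 40 imprinted genes outside the locus, 5 of 19 tested rose and 4 fell in ASPC1 with siZNF274, and 7 of 29 rose and 2 fell in CFPAC1, beside 45.7% and 24.8% of all genes called. CDKN1C, the maternally read inhibitor of cyclin-dependent kinases, went from 1.08 to 7.77 CPM in ASPC1 (7.23-fold, edgeR, adjusted p = 7.15e-08) and from 2.22 to 3.59 CPM in CFPAC1 (1.62-fold, adjusted p = 0.00179). It also rose with ZNF274 overexpression in Panc3.27, from 0.202 to 0.611 CPM (3.02-fold, adjusted p = 0.00353). These 3 calls were kept in every alternative run. KCNQ1, in the same imprinted cluster, fell from 8.09 to 2.34 CPM in ASPC1 with siZNF274, while the antisense KCNQ1OT1 rose from 11.1 to 18.9 CPM. With overexpression 8 of 26 tested rose and 8 fell, beside 36.9% of all genes, among them IGF2, a fetal growth factor, from 15.6 to 25.6 CPM. ZNF274 itself was not lower in either siZNF274 group.

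A list of 20 genes of the ZNF274 and SETDB1 complex and of imprint maintenance was tested in full in every line. With siZNF274 2 rose and 5 fell in ASPC1, and 0 rose and 5 fell in CFPAC1, beside 45.7% and 24.8% of all genes called. With AZA 6 rose and 0 fell in ASPC1, and 2 rose and 5 fell in CFPAC1, beside 35.8% and 25.7%. With overexpression 2 rose and 9 fell, beside 36.9%, where ZNF274 itself is on the list.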
